A study of Mus musculus with 36 samples.

Results

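Transcripts of 6 genes were followed across mouse embryonic stem cells (ESC) and the neural precursor cells (NPC) derived from them. They were Magohb, Magoh, Rbm8a, Eif4a3 and Casc3, which encode subunits of the exon junction complex, and Upf3b, which encodes a factor that binds the assembled complex. The genes were taken by name from a count table of 51734 gene symbols, and all 6 were among the 20511 genes with enough counts to be tested. The set was selected on 1 measured value, the low Magohb level in the line called MLL2dTAG against wild type, so Magohb values in that line are a description and carry no test. The libraries formed 6 groups of 3: wild-type cells (WT), cells with catalytically dead forms of the histone methyltransferases MLL3 and MLL4 (dCD), and cells whose MLL2 carries the dTAG degron (MLL2dTAG), each as ESC and as NPC. All 18 libraries came from E14 cells, a male mouse ESC line, and all are labelled as treated with dTAG-13, the compound that directs dTAG-tagged proteins to degradation. NPC were made with retinoic acid, received dTAG-13 at 2 µM from day 1 and were harvested on day 4. The sources used here give neither dose nor time of exposure for ESC. Each genotype is a line of its own, so the edit and other differences between lines cannot be told apart. Nothing states that the 3 replicates of a group were separate cultures, so p-values measure only the spread between these libraries.

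The exon junction complex is laid down on mRNA by the spliceosome a short way upstream of each exon-exon junction. Its core is the helicase EIF4A3, clamped on RNA by the heterodimer of RBM8A with a MAGO protein, together with CASC3. The core marks spliced mRNA for export, localization and translation, and where it remains downstream of a stop codon, UPF3B links it to UPF2 and UPF1 in nonsense-mediated decay. Mammals have a pair of MAGO genes, Magoh and Magohb, whose products are nearly the same protein. Magohb is known from earlier mouse work as a gene whose expression requires MLL2, the H3K4 methyltransferase encoded by Kmt2b.

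The coding sequences of Magohb and Magoh are shown first, because a value for either gene depends on whether reads of the pair can be separated. The stretch below covers bases 37 to 186 of the Magohb coding sequence and bases 31 to 180 of the Magoh coding sequence (GENCODE M21 gene models on GRCm38, printed 5′ to 3′ on the coding strand). Capitals mark the 32 positions of these 150 at which the genes differ.
Magohb: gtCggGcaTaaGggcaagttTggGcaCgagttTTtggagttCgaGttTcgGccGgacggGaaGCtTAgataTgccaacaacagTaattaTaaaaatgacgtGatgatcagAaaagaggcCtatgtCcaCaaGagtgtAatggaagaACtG
Magoh: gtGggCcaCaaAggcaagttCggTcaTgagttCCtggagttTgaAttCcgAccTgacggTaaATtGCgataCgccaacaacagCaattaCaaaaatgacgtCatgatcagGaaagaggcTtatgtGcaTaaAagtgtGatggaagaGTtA
Over the whole coding sequence (447 bases in Magohb and 441 in Magoh), 84 aligned bases differed, which is an identity of 81%. Of these differences, 73 fell on the third base of a codon. The longest run of identical bases was 17, and none of the 398 windows of 50 bases in the Magohb coding sequence occurred in Magoh. Coding reads of such a length can therefore be assigned to one gene of the pair, although the sources used here do not give the read length.

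The 250 bases upstream of each annotated start are shown because MLL2 is known for acting at CpG-rich promoters and because the levels of this gene pair separated in the MLL2dTAG line. They are RefSeq promoter windows on GRCm38.p6, printed 5′ to 3′ on the gene's own strand, with CG dinucleotides in capitals. Magohb lies on the minus strand, and its window is chr6:131293245-131293494. Magoh lies on the plus strand, and its window is chr4:107879505-107879754.
Magohb: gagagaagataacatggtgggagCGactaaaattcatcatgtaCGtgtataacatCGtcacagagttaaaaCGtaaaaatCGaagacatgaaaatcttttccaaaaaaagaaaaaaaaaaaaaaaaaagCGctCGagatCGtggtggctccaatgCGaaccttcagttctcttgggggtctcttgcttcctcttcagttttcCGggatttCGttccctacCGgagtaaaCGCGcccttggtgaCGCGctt
Magoh: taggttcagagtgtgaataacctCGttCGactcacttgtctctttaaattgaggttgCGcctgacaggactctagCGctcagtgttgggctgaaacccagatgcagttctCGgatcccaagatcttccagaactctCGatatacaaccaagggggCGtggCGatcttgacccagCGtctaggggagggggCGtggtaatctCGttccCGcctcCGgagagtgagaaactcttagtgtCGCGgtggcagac
The Magohb window held 16 CG dinucleotides and the Magoh window 15, against a median of 6 over 32851 promoter windows of this length. Magohb reached its 16 at a GC content of 42.8%, for an observed-to-expected CpG ratio of 1.4. For Magoh the GC content was 54% and the ratio 0.829. The CG counts of the pair were thus close, while GC content and CpG ratio differed. Whether any of these bears on the levels was not tested, and no chromatin data were used here. Windows were also found for Eif4a3, with 36 CG dinucleotides and a GC content of 70%, and for Upf3b, with 16 and 56.8%.

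In the GRCm38 gene models, Magohb spans chr6:131284388-131293244 with 1720 bases of exon. Of these, 520 bases are shared on the same strand with the processed pseudogene Gm44958, which had 0 to 4 counts per library. How reads in the shared bases were assigned is not stated, and whether Magohb lost reads there was not tested. Magoh spans chr4:107879755-107887424 and overlaps no other exon. Rbm8a lies at chr3:96629933-96633791, Eif4a3 at chr11:119288363-119300089, Casc3 at chr11:98804905-98833814 and Upf3b at chrX:37091678-37110322. Casc3 shares 494 exonic bases with the antisense gene Gm12359, whose group means were 0.584 to 1.55 CPM (a relative abundance, the counts scaled by library size) against more than 100 CPM for Casc3. The library kit keeps the strand, but the strand setting of the counting is not stated. The retrocopy Rbm8a2 had group means of 0.172 to 0.404 CPM, so reads placed there are few beside those of Rbm8a.

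Libraries held 19.4 to 46.0 M (mega) counts, and by 1 of 2 measures ESC WT replicate 2 stood apart from the other libraries of its group. The chi-square per degree of freedom between it and the other ESC WT libraries was 9.52 and 7.62, against 2.15 to 4.15 for all other replicate pairs. The Pearson correlation of log2 CPM did not set it apart, at 0.987 with replicate 1 and 0.99 with replicate 3, against 0.988 between those. Replicate 2 also held the lowest values of Magohb, Magoh, Rbm8a and Eif4a3 in its group. Without it, the log2 change in ESC dCD was 0.27 for Magoh, 0.14 for Rbm8a and 0.27 for Eif4a3. Kmt2b mRNA was 198 to 235 CPM in ESC WT and 201 to 214 CPM in ESC MLL2dTAG, and 177 to 193 CPM in NPC WT and 190 to 203 CPM in NPC MLL2dTAG. It checks nothing about the degron, which acts on the protein. Apart from Neurog2, no marker in the lists that follow was at 0 throughout a group. The summed level of 5 pluripotency markers in ESC was 2310 to 2430 CPM for WT, 2360 to 2450 CPM for dCD and 2940 to 3030 CPM for MLL2dTAG. In NPC it was 14.7 to 15.4, 13.1 to 15.7 and 93.2 to 97 CPM, in the same order. The sum of 6 neural progenitor markers was 64.7 to 73, 78.9 to 86.9 and 73.3 to 76.8 CPM in ESC, where Neurog2 was at 0 in every WT and MLL2dTAG library, and 154 to 157, 332 to 368 and 214 to 216 CPM in NPC. Both sums were thus above WT in the MLL2dTAG line at each stage, but the neural markers did not move together. In ESC MLL2dTAG, 3 of the 6 were called higher and 1 lower (28.7% and 28.2% of all genes). The lower one was Nes, the largest part of the sum, at a mean of 55.9 against 63.6 CPM. In NPC MLL2dTAG, 3 were called higher and 2 lower (33.3% and 28.4% of all genes). The lower ones were Pax6 (26.4 against 38.9 CPM) and Neurog2 (1.87 against 4.31 CPM). Endoderm markers (4 genes) summed to 13.5 to 15.4, 9.81 to 10.7 and 26.3 to 29.2 CPM in ESC and to 202 to 210, 175 to 182 and 492 to 506 CPM in NPC. Mesoderm markers (4 genes) were at 12.4 to 14, 28.7 to 32.8 and 8.56 to 9.16 CPM in ESC and at 0.503 to 0.886, 2.2 to 2.61 and 1.19 to 1.98 CPM in NPC. Genes of fibroblast feeder cells (5) were at 422 to 531, 637 to 718 and 704 to 752 CPM in ESC and at 319 to 336, 382 to 431 and 165 to 172 CPM in NPC. In NPC MLL2dTAG, 2 of these 5 were called higher and 3 lower. For example, Col1a2 averaged 21.3 against 153 CPM in NPC WT, and Postn 43.8 against 11.4 CPM. In bulk RNA, fewer cells of a type and less RNA per cell cannot be told apart, and the part of these markers in the results below was not tested.

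Magohb, one of the MAGO subunits, was expressed at a low level in WT and dCD cells and was close to absent in the MLL2dTAG line. Its level was 13.7, 9.69 and 15.1 CPM in the ESC WT libraries 1 to 3. It was 12.8, 11.9 and 12.7 CPM in ESC dCD. The dCD values lay inside the WT range.

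In ESC MLL2dTAG, Magohb was at 0.366, 0.342 and 0.366 CPM, from 10, 11 and 14 counts. All 3 libraries were above the floor of 3 counts and far below the lowest WT library, at 9.69 CPM. Pooled over libraries and corrected for depth, WT held 35.4 times as many Magohb counts as MLL2dTAG, from 993 against 35 counts (exact 95% interval 25.3 to 51.1, counting error only).

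The NPC libraries showed the same split. Magohb was at 11.3, 10.6 and 12.9 CPM in NPC WT and at 12.4, 12.3 and 11.6 CPM in NPC dCD, with overlapping ranges. In NPC MLL2dTAG, replicate 1 had no Magohb count, and replicates 2 and 3 had 2 each, all under the floor of 3 counts. Over the group, 1216 counts in WT stood against 4, a ratio of 340 (exact 95% interval 132 to 1249). Reads are not independent molecules, and halving every count, in case both mates of a pair were counted, gave 34.5 (21.6 to 58.6) in ESC and 340 (93.8 to 2817) in NPC.

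**Figure D1:**
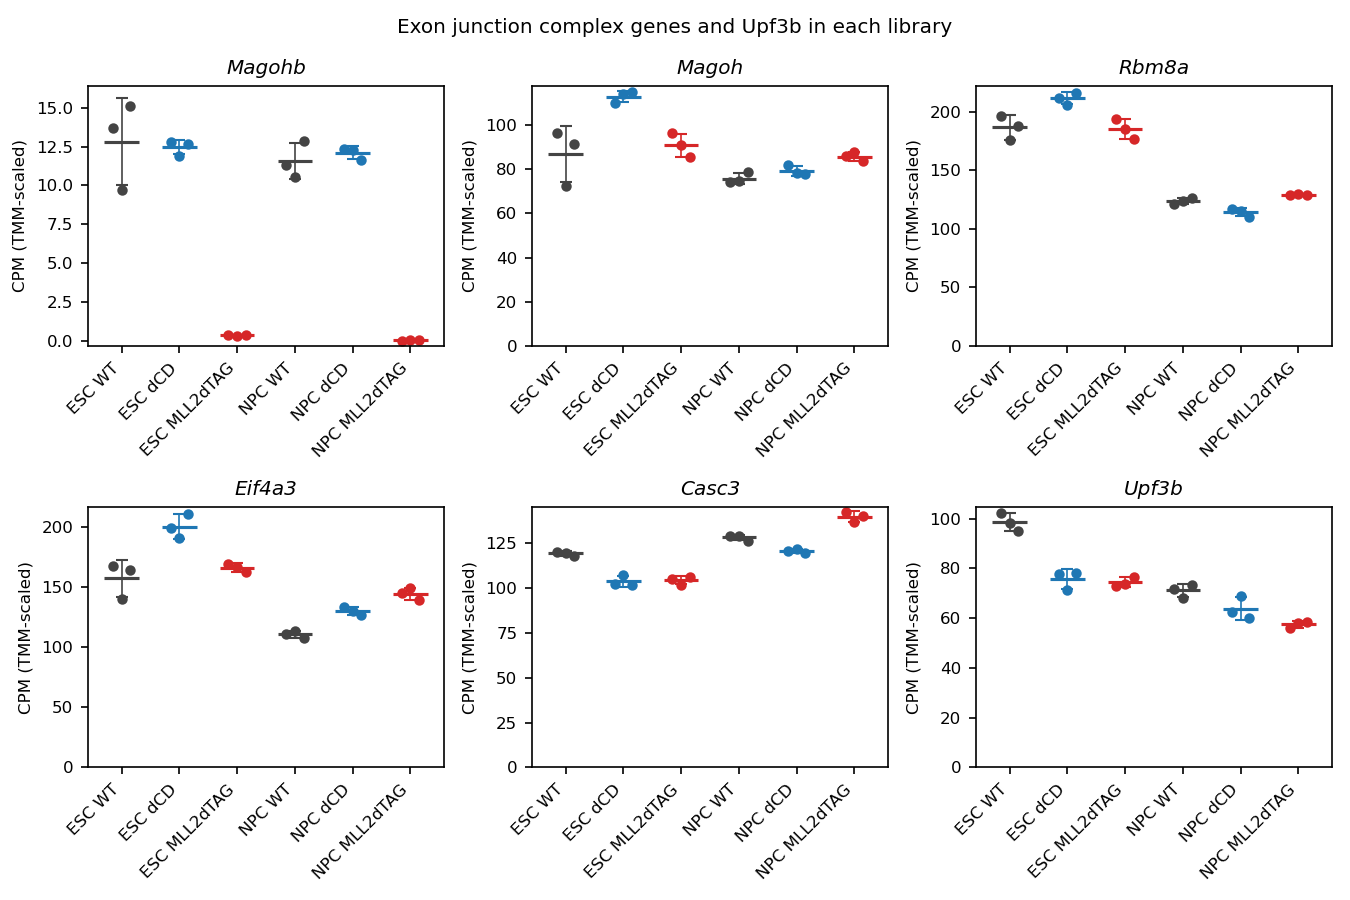
Level of each gene in each library, in CPM with TMM scaling (y axis, linear, a separate scale for each gene), for the 6 groups of 3 libraries (x axis). Points are libraries, wide bars are group means and whiskers are ± 1 SD; Magohb lies between 9.69 and 15.1 CPM in WT and dCD and at or below 0.366 CPM in MLL2dTAG.

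The level left in the MLL2dTAG line, as a share of the WT mean of the same stage, was 2.79% for Magohb in ESC (2.66% to 2.86% over 3 libraries) and 0.277% in NPC (0% to 0.45%). Several genes outside the complex were at similarly low shares in the line, the Y-linked genes among them. Eif2s3y, a Y-linked translation initiation gene, was at 3.67% in ESC and 0.184% in NPC. Ddx3y, a Y-linked RNA helicase gene, was at 5.5% and 0.41%, and Uty, a Y-linked histone demethylase gene, at 3.78% and 0.0767%. The exception was Kdm5d, at 50.5% in ESC and 0.702% in NPC, although its WT level in ESC was low, at 2.24 to 3.33 CPM. The 4 Y-linked genes summed to 191 to 199 CPM in ESC WT and 198 to 204 CPM in ESC dCD, against 8.9 to 10.5 CPM in ESC MLL2dTAG. In NPC the sums were 194 to 198 CPM in WT, 196 to 207 CPM in dCD and 0.415 to 0.652 CPM in MLL2dTAG. Magohb is on chromosome 6, and the part of this difference between lines in its level was not tested.

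**Figure D2:**
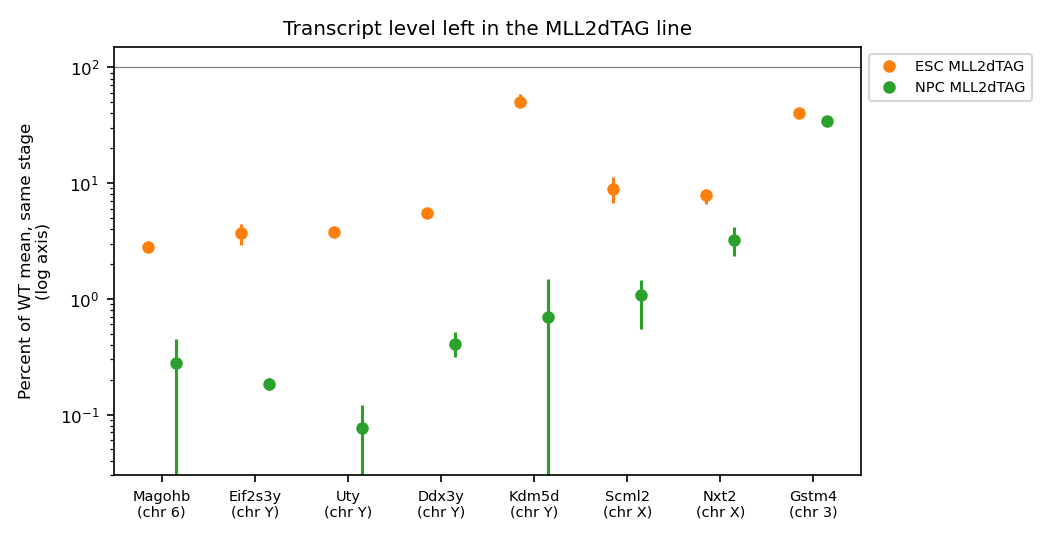
Level left in the MLL2dTAG line as a percentage of the mean of the 3 WT libraries of the same stage (y axis, log scale), for Magohb, 4 Y-linked genes and the other genes most like Magohb across libraries (x axis, with chromosome). Points are means of 3 libraries and bars their range, running off the axis where a library is at 0; Magohb is at 2.79% in ESC and 0.277% in NPC.

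The genes whose pattern was most like that of Magohb were ranked by Pearson correlation of log2 CPM over the 18 libraries among all 20511 genes tested. They were Scml2 (r = 0.994), Ddx3y (0.991), Eif2s3y (0.988), Nxt2 (0.988) and Gstm4 (0.987). Scml2, an X-linked polycomb-group gene, averaged 8.55 CPM in ESC WT and 0.757 CPM in ESC MLL2dTAG, and 10.9 and 0.116 CPM in NPC. Nxt2, an X-linked gene of the mRNA export family, averaged 46.8 and 3.72 CPM in ESC, and 27.6 and 0.895 CPM in NPC. Gstm4, a glutathione transferase gene on chromosome 3, kept more of its level, with 40.5% of WT left in ESC and 34.1% in NPC. These correlations share libraries and depth and mostly express the gap between MLL2dTAG and the other groups. No other exon junction complex gene was among these 5. None of the other members had such a gap, so their absence says nothing further of the complex.

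The 2 genes nearest to Magohb on chromosome 6 were not lost in the MLL2dTAG line. The nearest tested gene is Styk1, a kinase-like gene 5.9 kb away, which averaged 2.69 CPM in NPC WT and 4.51 CPM in NPC MLL2dTAG (log2 change 0.75, SE 0.17). In ESC it was at 0.173 and 0.32 CPM and did not pass the test (1.07, SE 0.50), although it did without ESC WT replicate 1 (1.66) or ESC MLL2dTAG replicate 2 (1.34). The second, Ybx3, encodes a nucleic-acid binding protein and lies 71.6 kb away. It averaged 358 CPM in ESC WT and 302 CPM in ESC MLL2dTAG (−0.25, SE 0.04), and 136 and 162 CPM in NPC (0.25, SE 0.04, or 0.16 with upper quartile scaling). On the other side the nearest tested gene, the autophagy gene Gabarapl1, lies 1740 kb away and was lower in the line, with 17.4 against 53 CPM in ESC and 27.7 against 102 CPM in NPC. The noncoding gene 2310001H17Rik, 2050 kb away, was at 0.361 CPM in NPC WT and had no count in NPC MLL2dTAG. Of the 10 nearest tested genes (5 a side, reaching 2050 kb), 3 were called higher and 3 lower in ESC MLL2dTAG, and 4 and 4 in NPC MLL2dTAG. Over all genes, 56.9% and 61.7% were called in those comparisons.

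Magoh, the other MAGO gene, supplied most of the pair's transcripts in every group. In the MLL2dTAG line it was at 96.1, 90.7 and 85.6 CPM in ESC, against 96.4, 72.5 and 91.5 CPM in ESC WT, and the ranges overlapped. In NPC MLL2dTAG it was at 85.8, 87.7 and 83.6 CPM, against 74.2, 74.5 and 78.6 CPM in NPC WT, and every MLL2dTAG library was above every WT library. The log2 change was 0.071 (SE 0.06) in ESC, or −0.046 without ESC WT replicate 2, and 0.18 (SE 0.06) in NPC. The NPC value was 0.087 with upper quartile scaling, which shifted log2 changes over all genes by a median of −0.0908. It was 0.28 with GC and length offsets.

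Magohb made up 12.8% of the pooled Magoh and Magohb counts in ESC WT (range over libraries 11.8% to 14.2%) and 13.2% in NPC WT (12.4% to 14.1%). In dCD it was 9.94% in ESC (9.49% to 10.4%) and 13.2% in NPC (13% to 13.6%). In MLL2dTAG the share was 0.393% in ESC (0.375% to 0.425%) and 0.0376% in NPC (0% to 0.0623%). These are shares of counts, and per kilobase of exon the Magohb share was 6.16% in ESC WT and 6.4% in NPC WT. That share depends on the length used. In ESC WT, Magohb and Magoh averaged 7.45 and 113 CPM per kb of all exons, but 14.3 and 125 CPM per kb of the longest transcript. The summed level of both genes was 99.6 ± 15.2 CPM (SD, n = 3) in ESC WT and 91.2 ± 5.25 CPM in ESC MLL2dTAG. In NPC it was 87.4 ± 3.55 CPM in WT and 85.7 ± 2.00 CPM in MLL2dTAG. The sums of WT and MLL2dTAG overlapped at both stages.

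The dCD comparison asks whether these transcripts respond when MLL3 and MLL4 cannot methylate. It is not the contrast on which the genes were selected, although earlier results of these data were known at that choice. In ESC, Magoh, Rbm8a and Eif4a3 rose and Casc3 and Upf3b fell, by 13.1% to 30.7%, while Magohb did not pass the test. That is 5 of 6 genes called at an adjusted p under 0.05, where 48.3% of all genes tested were called (25.7% higher and 22.6% lower). The dCD and WT ranges did not overlap for the same 5 genes, and for 51.8% of all genes. In NPC, Eif4a3 rose, and Rbm8a, Casc3 and Upf3b fell, all by less than 18%. That is 4 of 6, where 53.5% of all genes were called (26.7% higher and 26.8% lower). Ranges did not overlap for 3 of 6, and for 60.1% of all genes.

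Magoh rose in ESC dCD, where it was at 109.9, 114 and 115 CPM. All 3 libraries were above the highest WT library (96.4 CPM), and the log2 change was 0.39 (SE 0.06; adjusted p 1.4e-06 by the edgeR quasi-likelihood test, Benjamini-Hochberg, as for every adjusted p here). In NPC dCD it was at 81.7, 78.1 and 77.6 CPM. These overlapped the WT range, and the change of 0.062 (SE 0.06, adjusted p 0.393) did not pass the test. The change in NPC minus the change in ESC was −0.32 (SE 0.08, adjusted p 0.0018), and −0.21 without ESC WT replicate 2.

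Rbm8a, whose product pairs with the MAGO proteins, was at 196, 175 and 188 CPM in ESC WT and at 212, 206 and 216 CPM in ESC dCD. The ranges did not overlap, and the log2 change was 0.18 (SE 0.04, adjusted p 0.000247), falling to 0.11 once offsets for GC content and gene length were added. In NPC the direction was the opposite, with 121, 124 and 126 CPM in WT and 117, 115 and 110 CPM in dCD. Here too the ranges did not overlap (−0.12, SE 0.04, adjusted p 0.0139). The NPC call did not survive removing the filter on low counts (adjusted p 0.0761), NPC WT replicate 3 (0.0641) or NPC dCD replicate 3 (0.0933). The difference between stages was −0.30 (SE 0.06, adjusted p 4.3e-05).

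Eif4a3, the RNA-clamping helicase, rose in dCD at both stages. It was at 168, 140 and 164 CPM in ESC WT and at 199, 191 and 211 CPM in ESC dCD. In NPC it was at 111, 114 and 108 CPM in WT and at 133, 130 and 127 CPM in dCD. No dCD library fell within the WT range of its stage. The log2 change was 0.35 (SE 0.05, adjusted p 1.1e-07) in ESC and 0.23 (SE 0.05, adjusted p 9.96e-05) in NPC, and a difference between the stages did not pass the test (−0.12, SE 0.07, adjusted p 0.144). It did pass without ESC WT replicate 1 (−0.17, adjusted p 0.0319), and it was −0.046 (adjusted p 0.528) without ESC WT replicate 2.

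Casc3, the core subunit that joins after splicing, moved the other way. It was at 120, 119.9 and 118 CPM in ESC WT and at 102, 107 and 102 CPM in ESC dCD, with no overlap (−0.20, SE 0.04, adjusted p 1.8e-05). In NPC it was at 129, 129 and 126 CPM in WT and at 121, 122 and 119 CPM in dCD, again with no overlap. That NPC change was −0.088 (SE 0.03, adjusted p 0.0322), and 8 of the 27 alternative settings or left-out libraries ended the call, among them each of NPC WT replicates 1 and 2 and NPC dCD replicates 1 and 3 left out in turn (adjusted p 0.065 to 0.101).

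Upf3b, the link to nonsense-mediated decay, fell at both stages. It was at 102, 98.3 and 95 CPM in ESC WT and at 77.9, 71.2 and 78.0 CPM in ESC dCD, with a wide gap between the groups (−0.38, SE 0.05, adjusted p 3.8e-08). In NPC it was at 71.8, 68.3 and 73.5 CPM in WT and at 62.3, 68.9 and 59.96 CPM in dCD, where dCD replicate 2 lay inside the WT range. That change was −0.16 (SE 0.05, adjusted p 0.0047), and without NPC dCD replicate 3 it was −0.12 (adjusted p 0.0642). The fall was smaller in NPC by 0.22 (SE 0.07, adjusted p 0.0085), or by 0.16 (adjusted p 0.0584) without NPC dCD replicate 2.

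Magohb itself changed by −0.032 (SE 0.12, adjusted p 0.853) in ESC dCD and by 0.061 (SE 0.11, adjusted p 0.675) in NPC dCD. With single libraries left out, the ESC value lay between −0.21 and 0.12. Its SE was larger than those of the other members. Its counts were lower, at 257 to 461 per library in WT and dCD, and its ESC WT libraries also spread widely (12.8 ± 2.80 CPM). The part of each in the SE was not tested. For the interaction of dCD with stage, 3 of 6 genes were called, where 42.9% of all genes were (20% higher and 22.9% lower).

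**Figure D3:**
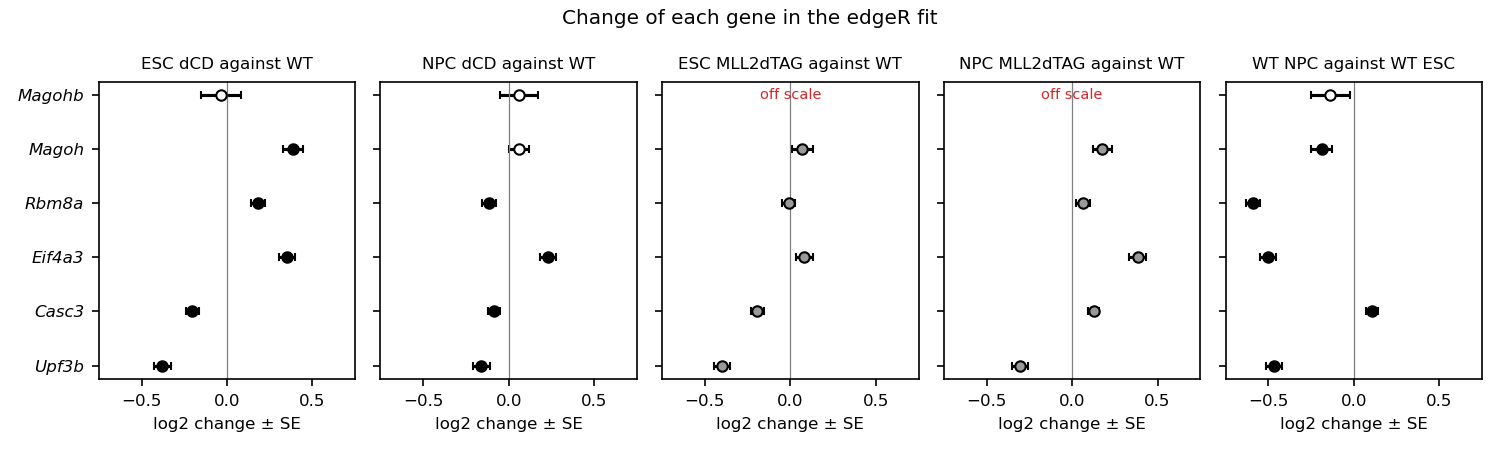
Fitted log2 change of each gene (rows) with its SE (bars) in 5 comparisons (panels), all drawn on 1 scale. In the dCD and WT stage panels, black points passed the edgeR test and white points did not. Grey points, all in the MLL2dTAG panels, are a description and do not show whether a gene was called. Magohb is off scale in both MLL2dTAG panels. In ESC dCD, Magoh, Rbm8a and Eif4a3 lie above 0, and Casc3 and Upf3b below it.

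In the MLL2dTAG line the members other than Magohb differed from WT far less than Magohb did. All comparisons of a stage share their WT libraries, so values of dCD and MLL2dTAG are set side by side and not compared. The contrast is the one in which the genes were chosen, and the values are given as a description. In ESC, 2 of the 5 were called, both lower, where 56.9% of all genes were (28.7% higher and 28.2% lower). Ranges did not overlap for 2 of 5 (59.7% of all genes). In NPC, 4 of the 5 were called, 3 higher and 1 lower, where 61.7% of all genes were called (33.3% higher and 28.4% lower). Ranges did not overlap for 5 of 5 (67.9% of all genes). The NPC count was 2 with upper quartile scaling, where 61.1% of all genes were called. That scaling shifted log2 changes over all genes by a median of −0.0908 in this comparison.

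Rbm8a was at 194, 185 and 176 CPM in ESC MLL2dTAG, within the spread of ESC WT, and its log2 change was −0.011 (SE 0.04). In NPC MLL2dTAG it was at 129, 129.8 and 129 CPM, just above the highest WT library (126 CPM). That change was 0.063 (SE 0.04), and −0.028 with upper quartile scaling.

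Eif4a3 was at 169, 167 and 162 CPM in ESC MLL2dTAG, overlapping WT (0.082, SE 0.05, or 0.0042 without ESC WT replicate 2). In NPC MLL2dTAG it was at 145, 149 and 139 CPM, above the WT range of 108 to 114 CPM in all 3 libraries (0.38, SE 0.05). The change in NPC exceeded that in ESC by 0.30 (SE 0.07).

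Casc3 was at 105, 102 and 106 CPM in ESC MLL2dTAG, below the WT range of 118 to 120 CPM (−0.19, SE 0.04). In NPC MLL2dTAG it was at 143, 137 and 140.5 CPM, above the WT range of 126 to 129 CPM (0.13, SE 0.03). The stages thus had opposite signs and differed by 0.32 (SE 0.05), although the NPC value was 0.035 with upper quartile scaling, 0.087 with no filter on low counts and 0.075 when only these 2 groups were fitted.

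Upf3b was at 72.9, 73.6 and 76.7 CPM in ESC MLL2dTAG and at 56.0, 58.3 and 58.3 CPM in NPC MLL2dTAG. All 6 libraries were below the WT range of their stage. The log2 change was −0.40 (SE 0.05) in ESC and −0.31 (SE 0.05) in NPC. For the interaction of MLL2dTAG with stage, 2 of the 5 genes other than Magohb were called, Eif4a3 and Casc3, both upward, where 49% of all genes were (26.4% higher and 22.6% lower).

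Most of these transcripts were lower in WT NPC than in WT ESC, although the fall of Magoh depended on the processing. Between WT ESC and WT NPC, 4 of 6 genes fell and Casc3 rose, where 79.5% of all genes tested were called (39.1% higher and 40.4% lower). Ranges did not overlap for 4 of 6, and for 79.7% of all genes. Rbm8a fell from 187 ± 10.6 to 124 ± 2.70 CPM (SD, n = 3; log2 change −0.59, SE 0.04, adjusted p 1.1e-15). Eif4a3 fell from 157 ± 15.2 to 111 ± 2.97 CPM (−0.50, SE 0.05, adjusted p 1.1e-11). Neither gene's NPC values overlapped those of ESC.

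Upf3b fell from 98.5 ± 3.602 to 71.2 ± 2.65 CPM (−0.47, SE 0.05, adjusted p 4.5e-11), also without overlap. Casc3 rose slightly, from 119 ± 1.34 to 128 ± 1.59 CPM (0.10, SE 0.04, adjusted p 0.0078). That rise was 0.022 (adjusted p 0.584) with upper quartile scaling and 0.21 with no filter. Upper quartile scaling shifted log2 changes over all genes by a median of −0.0828 in this comparison.

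The stage difference of the MAGO pair was less settled. Magoh averaged 86.8 ± 12.6 CPM in ESC WT and 75.8 ± 2.44 CPM in NPC WT, with overlapping ranges (−0.19, SE 0.06, adjusted p 0.0048). It was −0.30 without ESC WT replicate 2, did not pass when ESC WT replicate 1 (−0.11, adjusted p 0.0824) or 3 (−0.14, adjusted p 0.0572) was left out, and turned to 0.17 (adjusted p 0.0124) with GC and length offsets. Magohb averaged 12.8 ± 2.80 and 11.6 ± 1.17 CPM (−0.14, SE 0.11, adjusted p 0.265). It passed the test without ESC WT replicate 2 (−0.32, adjusted p 0.0076) and was 0.018 without ESC WT replicate 3.

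Between genes, levels were compared per kilobase of annotated exon. In ESC WT, Magoh was the highest (94.2 to 125 CPM per kb), followed by Eif4a3 (65.9 to 79.1), Rbm8a (54.5 to 61.1), Casc3 (27.4 to 28.0), Upf3b (23.7 to 25.5) and Magohb (5.63 to 8.77). No neighbours in this order overlapped. With the length of the longest transcript in place of all exons, Upf3b passed Casc3 (38.6 against 30.1 CPM per kb on average) and Magohb averaged 14.3 CPM per kb. In NPC WT the order was the same, from Magoh (96.4 to 102 CPM per kb) to Magohb (6.15 to 7.49).

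Across the 18 libraries, Magoh, Rbm8a and Eif4a3 varied together, with Pearson correlations of log2 CPM of 0.788 to 0.918. Casc3 ran against all of them, at −0.622 with Magoh, −0.754 with Rbm8a and −0.688 with Eif4a3. Magohb was at 0.018 with Magoh, 0.094 with Rbm8a, −0.083 with Eif4a3, −0.296 with Casc3 and 0.517 with Upf3b. These values describe 6 groups of 3 libraries and share depth and scaling. Those of Magohb mostly express its gap between MLL2dTAG and the other groups, on which it was chosen. By the same measure, the gene most like Rbm8a was the chaperone gene Fkbp4 (r = 0.994), and for Eif4a3 it was the lariat debranching gene Dbr1 (0.982). For Casc3 it was the lipid phosphatase gene Mtmr3 (0.987), and for Upf3b the kinase gene Nuak2 (0.972).

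Partners of the complex, 12 genes that act in splicing-linked assembly, export and cap binding, changed in both directions. For this list and the next 2, the share of all genes that passed the test was 48.3% in ESC dCD (25.7% higher, 22.6% lower) and 53.5% in NPC dCD (26.7% and 26.8%). It was 56.9% in ESC MLL2dTAG (28.7% and 28.2%), 61.7% in NPC MLL2dTAG (33.3% and 28.4%) and 79.5% between WT stages (39.1% and 40.4%). For the difference of a change between the stages it was 42.9% in dCD (20% and 22.9%) and 49% in MLL2dTAG (26.4% and 22.6%). In ESC dCD, 8 rose and 3 fell, with a median log2 change of 0.23 against 0.023 over all genes tested. The highest was the mRNA export receptor Nxf1 (0.60, SE 0.03, from 167 to 253 CPM) and the lowest the peripheral complex factor Rnps1 (−0.35, SE 0.05, from 99.9 to 78.5 CPM). In NPC dCD, 3 rose and 5 fell (median −0.029, all genes −0.017). Ncbp1, the large cap-binding subunit, was the highest there (0.59, SE 0.04) and the peripheral factor Acin1 the lowest (−0.35, SE 0.03).

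In ESC MLL2dTAG, 6 partners were called higher and 5 lower (median 0.10, all genes −0.0011), again with Nxf1 highest (0.69, SE 0.03) and Rnps1 lowest (−0.42, SE 0.05). In NPC MLL2dTAG, 8 were called higher and 2 lower (median 0.19, all genes 0.028), from the export adaptor Alyref (0.59, SE 0.04) to the splicing coactivator Srrm1 (−0.16, SE 0.03, or −0.25 with upper quartile scaling). From WT ESC to WT NPC, 5 rose and 7 fell (median −0.23, all genes −0.037). The export helicase gene Ddx39b rose by 0.77 (SE 0.03) and Ncbp1 changed by −0.97 (SE 0.04). For the dCD change in NPC minus that in ESC, 2 partners were called upward and 6 downward, from Ncbp1 (0.45, SE 0.06) to Ddx39b (−0.71, SE 0.04). Over the alternatives the counts were 1 or 2 and 5 or 6, where 22.2% to 47.4% of all genes were called. In MLL2dTAG that difference had 6 called upward and 3 downward, from Ncbp1 (0.70, SE 0.06) to Ddx39b (−0.47, SE 0.04). Over the alternatives these counts were 3 to 6 and 2 or 3, where 25.8% to 54% of all genes were called.

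Factors of nonsense-mediated decay, 13 genes, also moved both ways. In ESC dCD, 3 rose and 8 fell (median −0.20, all genes 0.023). The helicase Upf1, the central factor of the pathway, was the lowest (−0.52, SE 0.04, from 188 to 131 CPM), and the translation termination factor Etf1 the highest (0.50, SE 0.03, from 463 to 652 CPM). In ESC MLL2dTAG, 4 were called higher and 7 lower (median −0.26, all genes −0.0011), from Nbas (0.25, SE 0.05) to the kinase complex gene Smg9 (−0.72, SE 0.07).

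In NPC the counts of these factors were 5 higher and 5 lower in dCD (median 0.028, all genes −0.017) and 7 higher and 3 lower in MLL2dTAG (median 0.14, all genes 0.028). Etf1 was the highest in both, at 0.55 (SE 0.03) and 0.60 (SE 0.03). The lowest were the helicase gene Dhx34 in dCD (−0.38, SE 0.07) and the endonuclease gene Smg6 in MLL2dTAG (−0.29, SE 0.04). With differentiation of WT cells, 3 rose and 8 fell (median −0.73, all genes −0.037). Upf1 changed by −1.25 (SE 0.04), from 188 to 79.0 CPM, and Dhx34 by 0.48 (SE 0.08, or 0.28 with GC and length offsets). For the dCD change in NPC minus that in ESC, 6 of the 13 were called, each upward (median 0.054, all genes −0.044), with Upf1 the highest (0.67, SE 0.06). The call of Smg6 (0.16, SE 0.06), the lowest of the 6, ended under 8 alternatives, such as GC and length offsets (adjusted p 0.141) or a fit of only the groups compared (adjusted p 0.0602). For MLL2dTAG, 11 were called upward and 1 downward (median 0.29, all genes 0.046), from Smg5 (0.75, SE 0.05) to Nbas (−0.16, SE 0.07), whose call ended with the replicate block and under 8 left-out libraries. Both differences share the WT libraries of both stages.

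Transcripts known from other work as decay targets, 10 in all, were counted in the same way. In ESC dCD, 1 rose and 7 fell (median −0.28, all genes 0.023). The stress-response gene Gadd45b was the lowest (−1.25, SE 0.09, from 28.3 to 11.9 CPM). Atf4, a transcription factor of the integrated stress response, was the 1 that rose (0.10, SE 0.04), a call that ended when ESC WT replicate 2 (0.064, adjusted p 0.138) or ESC dCD replicate 3 (0.081, adjusted p 0.112) was left out and when only these 2 groups were fitted. In NPC dCD, 4 rose and 4 fell (median −0.076, all genes −0.017), from Atf3 (1.70, SE 0.12), another stress-response factor, to Zfas1 (−0.58, SE 0.05), a host gene of small nucleolar RNAs.

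In the MLL2dTAG line, 2 of these targets were called higher and 6 lower in ESC (median −0.31, all genes −0.0011), and 6 higher and 3 lower in NPC (median 0.27, all genes 0.028). Atf4 was the highest in ESC (1.02, SE 0.04, from 152 to 309 CPM) and Gadd45b the lowest (−1.26, SE 0.09). Atf3 was the highest in NPC (2.34, SE 0.12, from 3.05 to 15.5 CPM) and Zfas1 the lowest (−0.71, SE 0.05). With differentiation of WT cells, 1 rose and 9 fell (median −0.99, all genes −0.037), with Atf3 at 0.47 (SE 0.16; adjusted p 0.0553 without NPC WT replicate 3) and the snoRNA host gene Snhg12 at −1.93 (SE 0.06). For the dCD change in NPC minus that in ESC, 6 of the 10 were called upward and 2 downward (median 0.27, all genes −0.044), from Atf3 (1.85, SE 0.23) to Gas5 (−0.27, SE 0.05). The same difference in MLL2dTAG had 8 of the 10 called, each upward (median 0.36, all genes 0.046), with Gadd45b the highest (1.78, SE 0.14). The count was 5 with no filter on low counts, 6 with GC and length offsets and 9 without ESC WT replicate 2. Of all genes, 25.8%, 50.4% and 47.7% were called in those settings. Gas5 (0.14, SE 0.05), the lowest of the 8, lost its call under 5 alternatives. Both differences rest on the same WT libraries. Several of these transcripts also answer to stress or to cell state, and their counts say nothing of decay rates, which were not measured.

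**Figure D4:**
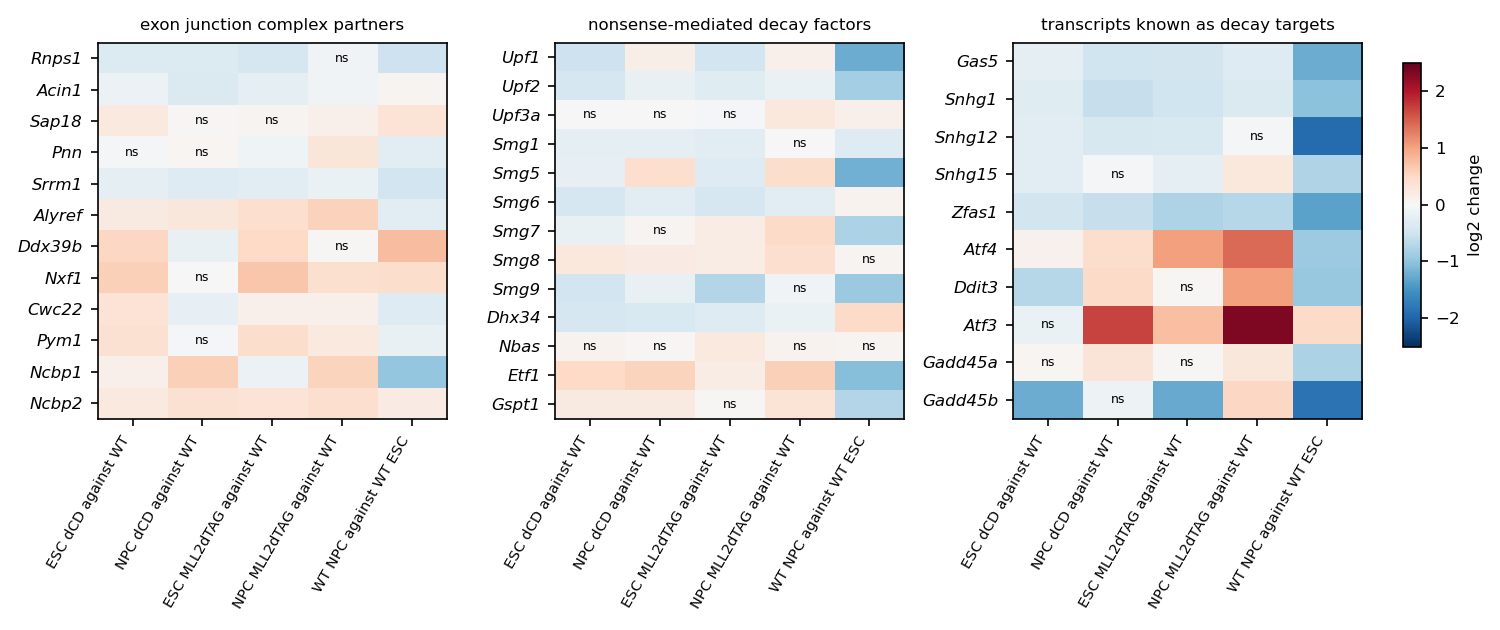
Fitted log2 change (colour, from −2.5 to 2.5) of 12 partners of the exon junction complex, 13 factors of nonsense-mediated decay and 10 known decay targets (rows) in 5 comparisons (columns), with ns where the edgeR test was not passed. Atf3 in NPC MLL2dTAG is the highest value, at 2.34, and Snhg12 from WT ESC to WT NPC is the lowest, at −1.93.

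Paralogs outside the complex were also measured. Eif4a2, the translation initiation helicase related to Eif4a3, was lower in ESC dCD (−0.53, SE 0.03), NPC dCD (−0.32, SE 0.03), ESC MLL2dTAG (−0.35, SE 0.03) and NPC MLL2dTAG (−0.24, SE 0.03), while Eif4a3 rose in both dCD comparisons. Between WT stages Eif4a2 changed by −1.10 (SE 0.03). Eif4a1, the other helicase of that kind, rose in ESC dCD (0.18, SE 0.04). Its means were 1036, 1171 and 1054 CPM in ESC WT, dCD and MLL2dTAG, and 553, 585 and 608 CPM in NPC, in the same order. The shares of all genes called are those given with the partners of the complex. Upf3a, the paralog of Upf3b, did not pass the test in either dCD comparison, averaging 41.5 ± 2.87 CPM in ESC WT and 41.6 ± 1.92 CPM in ESC dCD, and 44.9 ± 0.930 and 44.4 ± 2.09 CPM in NPC. It was higher in NPC MLL2dTAG, at 53.7 ± 2.44 CPM (0.26, SE 0.05, or 0.17 with upper quartile scaling), where Upf3b was lower. In ESC MLL2dTAG, where Upf3b was lower too, Upf3a averaged 40.1 ± 1.31 CPM and did not pass the test.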

How the data were processed

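The authors deposited unnormalized read counts for each gene symbol. Per the labels' protocols, the kit was TruSeq Stranded mRNA, and per the submitters' processing notes they were counted with HTSeq. The aligner, build and versions are not given in the sources used here. Columns were matched to samples by name, and 18 columns that matched no single label were not used. In R 4.3.3, edgeR 4.0.16 was run on all 18 libraries (limma 3.58.1 alongside): filterByExpr by group left 20511 genes, TMM factors were 0.967 to 1.05, and a quasi-likelihood fit of 1 mean per group (12 residual degrees of freedom, common dispersion 0.00161) gave two-sided p-values, adjusted over all genes tested by Benjamini-Hochberg and called under 0.05. The SE of a log2 change was derived from that fit, as the absolute log2 change divided by the square root of the quasi-likelihood F statistic. The code was tested on simulated data. CPM use TMM-scaled totals, and the floor of 3 counts is 0.0662 to 0.160 CPM. In each library, 60.8% to 66.5% of counts from 1 to 10 were even. Symbols matched GENCODE M21 in 92.1% of rows, and 4 of the 6 genes had a RefSeq promoter window. Alternatives were DESeq2 1.42.0 and its size factors, upper quartile scaling, no filter beyond 1 count, GC and length offsets, halved counts, a replicate block, a fit of only the groups compared, each library left out, and other lengths for CPM per kb. The genes, lists and tests were chosen with earlier results of these data known. Named genes are the 6 genes, the highest and lowest called gene of each list, the nearest neighbours of Magohb, the genes most correlated with each gene (that for Magoh is not reported here), listed paralogs, Kmt2b and 4 Y-linked genes.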

Additional observations from a re-analysis of the deposited data

Results flagged for a closer look

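The change from WT differed between ESC and NPC, by the interaction test in edgeR, for 5 values, each given as the log2 change in NPC minus that in ESC. For dCD they were −0.32 for Magoh, which rose in ESC and did not pass the test in NPC, −0.30 for Rbm8a, which rose in ESC and fell in NPC, and 0.22 for Upf3b, which fell at both stages and less so in NPC. For MLL2dTAG they were 0.30 for Eif4a3 and 0.32 for Casc3, given as a description because the genes were chosen on that line. Both groups at each stage have 3 libraries, and ESC WT enters all 5 values. Without ESC WT replicate 2 they were −0.21, −0.26, 0.22, 0.38 and 0.31.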

How the results depend on the processing

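The count of the 6 genes called in NPC dCD was 4, where 53.5% of all genes tested were called. It was 2 without a filter on low counts (28.3% of all genes). With single libraries left out it was 1 to 4 (1 without NPC dCD replicate 3, where 48.7% of all genes were called). Of the 5 genes other than Magohb, 2 were called in ESC MLL2dTAG, where 56.9% of all genes were. The count was 4 without a filter (31% of all genes) and 4 with GC and length offsets (59%). It was 4 with those offsets and the replicate block (58.3%). With single libraries left out it was 2 to 4 (4 without ESC WT replicate 1, where 53.9% of all genes were called). In NPC MLL2dTAG the count was 4 (61.7% of all genes), and 2 with upper quartile scaling (61.1%). That scaling shifted log2 changes over all genes by a median of −0.0908 in NPC MLL2dTAG and −0.0828 between WT stages. Values of single genes with that scaling include this common shift. Per kilobase of exon, the Magohb share of the pair was 6.16% (ESC WT), 4.72% (ESC dCD), 0.176% (ESC MLL2dTAG) and 6.4% in both NPC WT and NPC dCD. These shares use the length of all annotated exons and depend on that choice. The log2 change of Magohb, called in none of the following with all libraries, changed sign with single libraries left out. It ran from −0.21 to 0.12 in ESC dCD (0.012 without ESC WT replicate 1, 0.12 without replicate 3), from −0.0029 (without NPC WT replicate 2) to 0.14 in NPC dCD, from −0.32 to 0.018 (without ESC WT replicate 3) between WT stages, and from −0.061 (without ESC WT replicate 3) to 0.27 in the interaction of dCD with stage. The −0.32, without ESC WT replicate 2, passed the test. Between WT stages with GC and length offsets, Magoh turned to 0.17, a call in the other direction (0.17 with the replicate block too), and the decay factor Upf3a from a called 0.12 to −0.015 (−0.016 with the block). The cause was not tested. The replicate block pools numbers that do not pair the libraries, since correlations of same-numbered deviations ranged from −0.142 to 0.116. With the block, the counts of the 6 genes called were 5 in ESC dCD, 4 in NPC dCD and 5 between WT stages, as without it. Of all genes, 47.6%, 52.7% and 78.8% were called with the block, in the same order.

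At 35 and 4 pooled counts, the remaining Magohb level in MLL2dTAG is known only within the intervals given, and in NPC each library was under the floor. Groups of 3 libraries from 1 line each limit every other comparison. ESC WT, with 1 library apart from the rest by chi-square, is the reference for all ESC results and for the stage comparison.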
